A study of Mus musculus with 8 samples.

Results

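The effect of Kmt2c loss on the transcriptome of mouse prostate epithelium was compared between mice with and without androgen deprivation. For every gene, the PPK minus PP difference in ADT mice was set against the PPK minus PP difference in sham mice. Levels are in FPKM, in which the fragments read from a gene are divided by its length and by the size of the library. A gene was taken where 2 or more libraries held it at 1 FPKM or above, which left 14000 of the 55335 genes in the files. Both genotype effects are differences of group means of log2(FPKM + 1), so 1 unit is a 2-fold change, and changes of genes with low levels are understated. The quantity described here, called the difference of effects, is the effect in ADT mice minus the effect in sham mice, and it is positive where PPK stood higher against PP under ADT than without it.

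RNA came from sorted prostate epithelial cells (EpCAM+, CD24a+, CD49f-low), and 8 libraries fell into 4 groups of 2, lettered A and B. Every mouse carried the genotype that the submitters abbreviate PP, and PPK mice had Kmt2cPC-/- in addition. The labels name neither the driver behind the suffix PC nor the means of androgen deprivation. PP sham and PPK sham mice were 3.5 months old, and PP ADT and PPK ADT mice, given androgen deprivation therapy, were 6.5 months old. Treatment and age therefore changed together and cannot be told apart, and "under ADT" below stands for both. The labels do not say whether libraries A and B came from separate animals, so the p-values measure the spread between these libraries, which may be technical. Within a group, libraries A and B correlated at Pearson's r of 0.986 to 0.988 across genes, which are not independent replicates. The depth, estimated from the smallest step of FPKM in single-exon genes, was 17600000 to 25100000 fragments per library.

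KMT2C is a histone methyltransferase that, as part of a large complex with the demethylase UTX, places monomethyl marks on histone H3 lysine 4, mostly at enhancers. Luminal cells of the prostate make secretory proteins under control of the androgen receptor, and the gland loses most of these cells' products when androgen is withdrawn. Basal cells lie beneath them and are marked by keratins 5 and 14 and the transcription factor p63, while the suprabasal keratins, transglutaminase 1 and the cornified envelope proteins belong to stratified squamous epithelium. Interferons act through JAK kinases and the transcription factors they activate on a large set of antiviral genes and on the genes of antigen presentation.

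The genotype label was checked on Kmt2c itself (ENSMUSG00000038056, chromosome 5, 25271798 to 25498783, GRCm38), read over the whole gene, which also counts exons that remain in the mutant. Kmt2c read 13.2 and 13.9 FPKM in PP sham, 8.67 and 8.15 in PPK sham, 10.3 and 9.33 in PP ADT, and 6.60 and 6.36 in PPK ADT libraries. Both PPK groups lay below their PP counterparts with no overlap. The genotype effect was -0.63 in sham and -0.53 in ADT mice, and the difference of effects, 0.10 ± 0.094 (SE), did not pass (limma, adjusted p = 0.415).

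The sorting markers and the keratins of luminal cells were read in all groups. Epcam lay at 506 to 522 FPKM in PP sham, 556 to 565 in PPK sham, 462 to 470 in PP ADT and 310 to 315 in PPK ADT. Itga6, which encodes CD49f, lay at 32.6 to 34.4 FPKM in the 4 ADT libraries and at 16.8 to 26.7 in the sham libraries. The luminal keratin gene Krt8 was high in both sham groups and in PP ADT (1263 to 1883 FPKM) and lower in PPK ADT (286 to 294). In sorted bulk RNA, fewer cells of a type and less RNA of that type per cell cannot be told apart, and this holds for every result below.

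The difference of effects passed the test (Benjamini-Hochberg adjusted p under 0.05 over all 14000 genes, limma) for 7395 genes, 52.8% of those tested. It was positive for 4198 genes (30.0%) and negative for 3197 (22.8%), and it passed with a size of at least 1 for 2944 genes (21.0%). The genotype effect alone passed for 4000 genes in sham mice (28.6%) and for 8340 in ADT mice (59.6%). Counts of list members below are to be read against these shares. Over all genes the median difference of effects was 0.09, and the median genotype effect was -0.02 in sham and 0.05 in ADT mice.

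Genes whose difference of effects passed at a size of at least 1 were sorted by pattern. An effect was called reversed where both genotype effects passed, were at least 0.5 in size and had opposite signs, which held for 552 genes (3.94% of those tested). It was called appeared where it passed at a size of at least 1 in ADT mice and was under 0.5 in sham mice, for 1538 genes (11.0%). Vanished genes had the opposite order and numbered 130 (0.929%). Of the rest, 118 genes (0.843%) had effects of at least 0.5 in the same direction that were larger under ADT, 19 (0.136%) had such effects that were smaller under ADT, and 587 met none of these rules. Just inside the bound of 1 were Hmgn1 (1.0004) and Slc38a2 (1.0006), and just outside were Thsd1 (0.9991) and 4933412E12Rik (-0.9992).

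**Figure D1:**
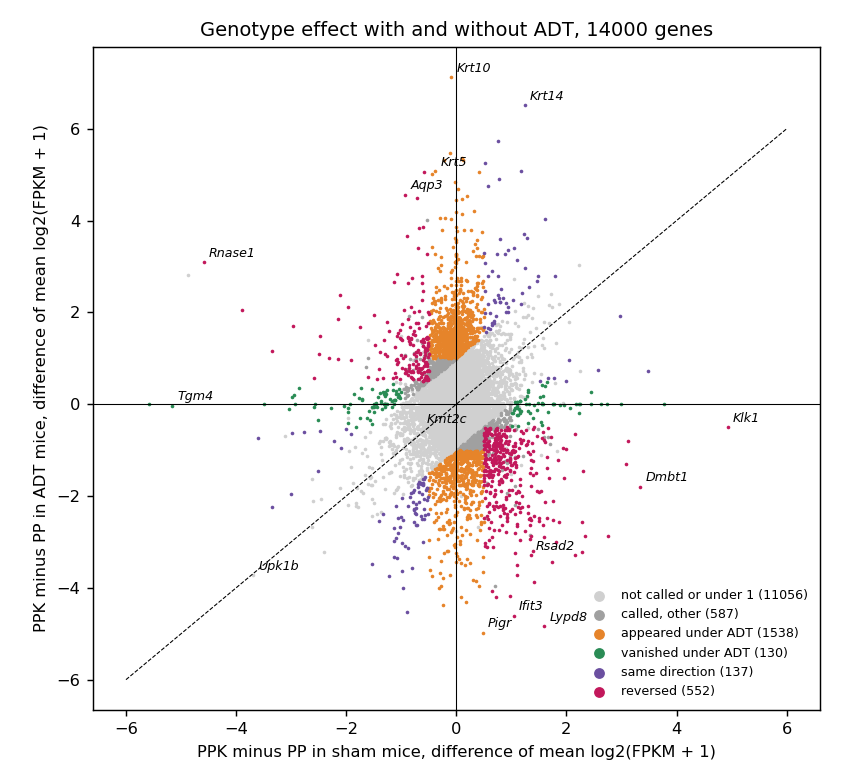
Genotype effect in ADT mice (vertical axis, difference of mean log2(FPKM + 1), PPK minus PP) against the same effect in sham mice (horizontal axis) for 14000 genes, coloured by pattern, with the dashed line marking equal effects. Reversed genes (552) fill the upper left and lower right, appeared genes (1538) lie along the vertical axis and vanished genes (130) along the horizontal axis.

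The reversed genes leaned to one side: 382 were higher in PPK without ADT and lower with it, and 170 took the opposite course. In the larger set, the median genotype effect was 0.81 in sham and -1.24 in ADT mice. In these genes the step from sham to ADT was a rise in PP mice (median 0.72) and a fall in PPK mice (median -1.44). The rule lets only PP sham or PPK ADT be the lowest of the 4 groups in this set. PPK ADT was lowest for 275 of the genes (72%) and PP sham for 107. In the smaller set, the medians were -0.74 in sham and 1.12 in ADT mice, with a fall from sham to ADT in PP (median -0.60) and a rise in PPK (median 1.32).

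Most genes of the interferon response list, a choice of interferon-stimulated genes, reversed. All 37 members of the interferon response list were tested, and the difference of effects was negative and passed for 37 of 37, against 22.8% of all genes, with a median of -2.93. In sham mice 34 of the 37 were higher in PPK (median effect 0.83), and under ADT 37 of 37 were lower in PPK (median -1.91). By pattern, 31 reversed, 3 appeared (Irf9, Ddx58 and Irgm1) and 3 met no rule (Ifit2, Oasl2 and Ifi35). The counts for this list, 0 positive and 37 negative, were the same with median-of-ratios scaling and with quantile normalization. The list was chosen with earlier results of these data known, so its counts describe the members chosen. Outside it, the interferon-inducible genes Ifitm1 and Ifi27l2a, described below, did not reverse.

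Promoter sequences of these genes were searched for a motif of interferon-stimulated genes. The list is made of such genes, so its share of the motif describes the list and does not bear on the levels in these libraries. The interferon-stimulated response element, taken here as GAAA, any 2 bases and GAAA again on either strand, is the motif known to be bound by interferon regulatory factors. Windows of 300 bases, from 250 before to 50 after each gene's start, came from RefSeq on GRCm38.p6. The motif stood in 3.44% of all 32851 promoters in that table, and 3.99% of the table's genes held it in any promoter. Of the 37 interferon response genes 27 had a window, and 18 of these (66.7%) held the motif. Stretches from 6 of them, and from the class I antigen presentation genes H2-T23 and B2m, are printed 5′ to 3′ on the gene's strand, with every match to the motif in capitals.
Ifit3: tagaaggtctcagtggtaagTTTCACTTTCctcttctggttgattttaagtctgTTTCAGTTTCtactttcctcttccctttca
Ifit1: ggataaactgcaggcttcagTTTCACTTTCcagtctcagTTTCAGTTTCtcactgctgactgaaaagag
Isg15: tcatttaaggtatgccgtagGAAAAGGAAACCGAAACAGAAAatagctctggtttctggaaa
Bst2: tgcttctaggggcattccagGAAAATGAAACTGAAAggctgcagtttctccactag
Rsad2: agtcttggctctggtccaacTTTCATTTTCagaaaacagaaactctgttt
Trim30a: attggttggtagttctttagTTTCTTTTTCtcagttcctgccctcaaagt
H2-T23: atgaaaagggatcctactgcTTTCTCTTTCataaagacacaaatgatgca
B2m: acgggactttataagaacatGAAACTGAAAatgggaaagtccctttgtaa
The stretches lie at chr19:34583353-34583436 (plus strand, Ifit3), chr19:34640765-34640833 (plus, Ifit1), chr4:156200855-156200916 (minus, Isg15) and chr8:71537567-71537622 (minus, Bst2). The others lie at chr12:26456543-26456592 (minus, Rsad2), chr7:104465200-104465249 (minus, Trim30a), chr17:36032796-36032845 (minus, H2-T23) and chr2:122147528-122147577 (plus, B2m). Ifit3 and Ifit1 each show a pair of matches in the reverse orientation, and in Isg15 and Bst2 overlapping matches form 1 longer run. A match describes the letters in the window and is not a measured binding site.

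The motif was also counted by pattern. Of the 382 genes that reversed to lower, 260 had a window and 54 of these (20.8%) held it. With the interferon response and class I lists taken out, 231 had a window and 38 (16.5%) held it. Since only those lists were taken out, other interferon-inducible genes may remain among the 231. Of the 170 genes that reversed to higher, 85 had a window and 2 (2.35%) held it, and the appeared genes held it at 4.56% where they were higher and 4.71% where they were lower. Among all tested genes with a window the share was 3.76%. The gamma-activated site, spelled TTCNNNGAA and also read on both strands, was held by 7 of the 27 interferon response genes with a window (25.9%). Among all tested genes with a window, 8.17% held it.

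Isg15, a ubiquitin-like modifier, read 158 and 153 FPKM in PP sham, 344 and 334 in PPK sham, 243 and 244 in PP ADT, and 50.2 and 51.5 in PPK ADT. The 4 groups did not overlap, with PPK sham highest and PPK ADT lowest. Its genotype effect turned from 1.12 to -2.24, a difference of effects of -3.35 ± 0.042 (SE; limma, adjusted p = 4.65e-08). Ifit3, which binds viral RNA complexes with its Ifit partners, read 141 and 151 FPKM in PP sham, 299 and 303 in PPK sham, 251 and 251 in PP ADT, and 9.09 and 9.57 in PPK ADT. Its order of groups was that of Isg15, and its difference of effects, -5.65 ± 0.059, was the most negative of the list (limma, adjusted p = 3.07e-08). Rsad2, the antiviral enzyme viperin, read 101 and 101 FPKM in PP sham, 258 and 260 in PPK sham, 132 and 130 in PP ADT, and 12.8 and 12.3 in PPK ADT, a difference of -4.64. Bst2, which tethers budding virions, fell less far, to 44.4 and 43.7 FPKM in PPK ADT against 138 and 135 in PP ADT. Ifit3 shares near-identical sequence with Ifit3b, so fragments of this pair may be divided uncertainly.

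The factors that carry the interferon signal moved as well. Irf7, an interferon-inducible transcription factor, read 47.5 and 48.5 FPKM in PP sham, 85.6 and 98.4 in PPK sham, 68.2 and 69.7 in PP ADT, and 12.2 and 11.4 in PPK ADT, with effects of 0.92 and -2.45. PPK sham stood highest and PPK ADT lowest, and the difference of effects was -3.37 ± 0.096 (SE; limma, adjusted p = 9.84e-07). Stat2 also reversed (0.51 to -1.67), and Jak2, a kinase upstream, changed from 0.47 to -0.88. Irf9 had no effect in sham mice that passed (-0.17), with its PP sham libraries apart at 20.9 and 31.6 FPKM, and an effect of -1.60 under ADT. Of 20 tested members of the interferon sensing and signalling list, the difference was negative for 12, positive for 1 and did not pass for 7, with a median of -0.84.

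**Figure D2:**
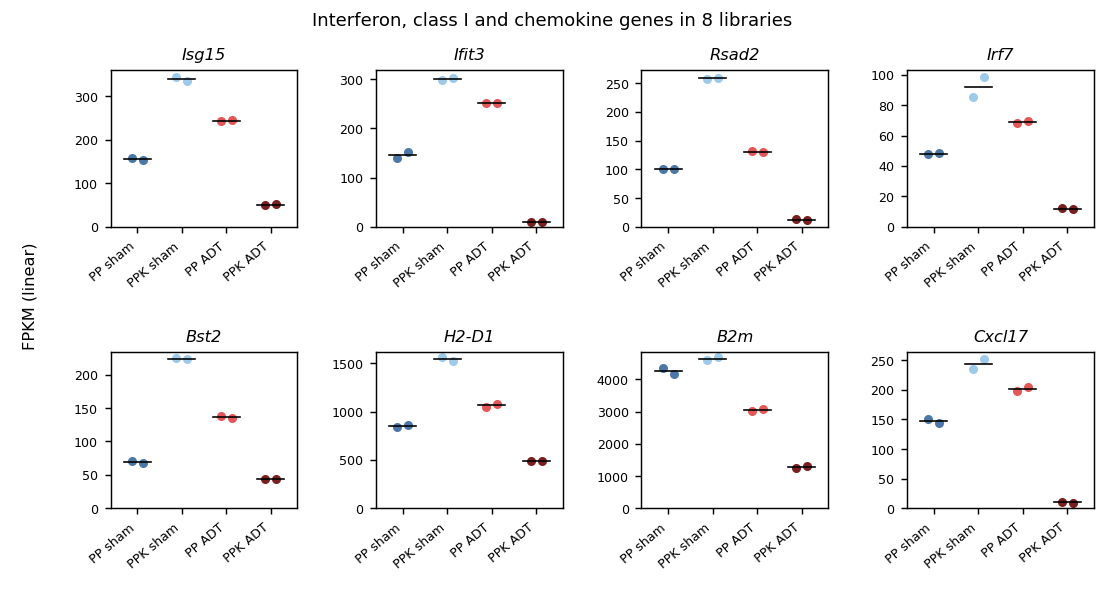
FPKM (linear axes from 0) of 8 interferon, class I and chemokine genes in each library, with the group mean as a line. For Isg15, Ifit3 and Rsad2, PPK sham is the highest group (258 to 344 FPKM) and PPK ADT the lowest (9.09 to 51.5 FPKM).

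Genes of class I antigen presentation followed the same course at a smaller size. The difference of effects was negative and passed for 18 of 18 members (median -1.74), with 16 higher in PPK in sham mice and 17 lower in PPK in ADT mice. H2-D1, a class I heavy chain, read 838 and 867 FPKM in PP sham, 1566 and 1521 in PPK sham, 1053 and 1082 in PP ADT, and 491 and 490 in PPK ADT. PPK sham and PPK ADT were thus the ends of the range, and the effect turned from 0.86 to -1.12 (difference -1.97 ± 0.039; limma, adjusted p = 2.65e-07). B2m, the shared light chain, showed a sham effect of 0.12 and an ADT effect of -1.26, from 3012 and 3087 FPKM in PP ADT to 1239 and 1313 in PPK ADT. Nlrc5, the transactivator of class I genes, went from 1.18 to -0.59. The H2 genes are near-identical in parts, so fragments may be divided among them. Of the 16 class I genes with a promoter window, 4 held the interferon-stimulated response element (25%).

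Class II genes are made mainly by antigen-presenting cells and by epithelium under interferon gamma. Of 6 tested members of that list, 5 had a negative difference and 1 did not pass. Cd74, the invariant chain, read 9.33 and 9.05 FPKM in PP sham, 13.0 and 12.5 in PPK sham, 84.7 and 83.3 in PP ADT, and 9.65 and 14.2 in PPK ADT. The high level was that of PP ADT, and the difference of effects was -3.17. Markers of macrophages and monocytes also had mostly negative differences. Of 21 listed markers 11 were tested, and 10 had a negative difference. Their summed level was 67.8 to 68.1 FPKM in PP sham, 141 in both PPK sham libraries, 144 to 153 in PP ADT and 57.0 to 57.7 in PPK ADT. Cd14 made up much of that sum (41.3 and 41.8, 89.4 and 91.5, 96.2 and 101, 16.4 and 13.6 FPKM), while Cd68 read 18.7 and 18.9 FPKM in PPK ADT and 17.4 and 19.6 in PP ADT. The part of these cells in the immune results was not tested.

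Chemokine genes had mostly negative differences, and 9 of them reversed. The difference was negative for 14 of 17 tested chemokines, positive for 1 and not passed for 2, with a median of -2.19. Cxcl2, which attracts neutrophils, read 103 and 104 FPKM in PP sham, 218 and 215 in PPK sham, 238 and 238 in PP ADT, and 24.2 and 24.2 in PPK ADT. Cxcl5, of the same family, was highest in PP ADT (539 and 532 FPKM) and read 126 and 118 in PPK ADT, above its PP sham level of 42.7 and 41.8. Cxcl17, a mucosal chemokine, fell from 199 and 205 FPKM in PP ADT to 10.5 and 9.60 in PPK ADT, and its effect turned from 0.72 to -4.20. Neutrophil markers did not share this order. S100a9 read 9.45 and 9.31 FPKM in PPK ADT, its highest group, with a difference that did not pass (-0.48, limma, adjusted p = 0.254). This depends on the pseudocount: with 0.1, the 2 tested neutrophil markers had negative differences that passed (median -2.02). The listed neutrophil markers summed to 0.484 and 0.536 FPKM in PP sham.

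In the NF-kB pathway list, 11 of 19 tested genes had a negative difference and 8 did not pass. The cytokine gene Tnf read 63.2 and 63.6 FPKM in PP sham, 144 and 140 in PPK sham, 113 and 113 in PP ADT, and 13.6 and 13.7 in PPK ADT. Its effect turned from 1.15 to -2.96 (difference -4.12 ± 0.041; limma, adjusted p = 2.78e-08). Il1b took the same course at lower levels (1.65 to -1.39), as did the adhesion gene Icam1 (0.94 to -0.87). The complement list was split, with 7 of 12 negative, 4 positive and 1 not passed. C3, the central component, read 14.0 and 13.8 FPKM in PP sham, 71.8 and 73.9 in PPK sham, 239 and 239 in PP ADT, and 86.7 and 87.5 in PPK ADT. It rose from sham to ADT by 4.01 in PP and by 0.25 in PPK mice.

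Mucosal barrier and secretion genes had a median difference of -2.79, with 14 of 15 negative and 1 not passed. Lypd8, a surface protein that keeps bacteria off the epithelium of the colon, read 81.2 and 81.8 FPKM in PP sham, 251 and 243 in PPK sham, 65.2 and 69.3 in PP ADT, and 1.39 and 1.42 in PPK ADT. The PPK groups were the highest and the lowest, and the difference was -6.41 ± 0.057 (limma, adjusted p = 2.04e-08). Pigr, the receptor that carries IgA across epithelium, read 1041 and 1037 FPKM in PP sham, 1440 and 1460 in PPK sham, 1074 and 1066 in PP ADT, and 31.6 and 34.3 in PPK ADT. PPK ADT alone was low. PPK sham stood above PP sham by 0.48, an effect that passed (limma, adjusted p = 0.000249). Because it lies just under the bound of 0.5, Pigr counts as appeared. Dmbt1, a mucosal scavenger receptor, was high in PPK sham alone (49.5 and 49.7 FPKM) and read 0.313 to 4.17 FPKM elsewhere. Lcn2, which binds bacterial siderophores, turned from 1.50 to -2.47.

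Further reversed genes with a negative difference, chosen for its size, were Clca3a2 (-5.50) and Clca1 (-5.19), of the calcium-activated chloride channel regulators, Cp, the ferroxidase ceruloplasmin (-5.45), and Sftpd, the surfactant lectin (-5.29). Cp rose from 9.76 and 8.89 FPKM in PP sham to 90.8 and 89.1 in PP ADT, and read 46.2 and 43.6 in PPK sham and 8.53 and 8.04 in PPK ADT. Genes with an appeared negative effect included Edn1, endothelin 1, at 195 to 236 FPKM in the other 6 libraries and at 10.7 and 11.0 in PPK ADT. Plat, the tissue plasminogen activator, read 479 and 483 FPKM in PP ADT, 183 to 196 in sham libraries and 24.8 and 25.5 in PPK ADT.

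Under ADT, 18 of 21 tested luminal genes were lower in PPK and 14 of 19 basal genes were higher. In sham mice the lists were divided, with 8 luminal genes higher and 5 lower in PPK, and 7 basal genes higher and 7 lower. Of the luminal genes, 17 had a negative difference, 2 a positive one and 2 did not pass, and the median effect was 0.00 in sham and -0.62 in ADT mice. Krt8 had an effect of 0.09 in sham mice and of -2.68 in ADT mice (difference -2.77 ± 0.03; limma, adjusted p = 3.29e-08). Krt18, its partner keratin, read 1634 and 1642 FPKM in PP ADT and 477 and 507 in PPK ADT. Krt19 read 1700 and 1702 FPKM in PP sham, 1398 and 1435 in PPK sham, 1251 and 1269 in PP ADT, and 386 and 392 in PPK ADT. Tspan1, a tetraspanin of luminal epithelium, was equal in both sham groups within their spread (448 to 463 FPKM) and read 179 and 179 in PP ADT against 18.3 and 18.0 in PPK ADT. Prom1, a luminal progenitor marker, reversed, from 1.14 to -1.91.

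Of 19 basal genes tested, 15 had a positive difference and 4 a negative one (median 0.71). Krt5 read 30.0 and 27.1 FPKM in PP sham, 22.0 and 21.0 in PPK sham, 94.3 and 96.8 in PP ADT, and 3242 and 3243 in PPK ADT. The effect was -0.39 in sham mice and 5.07 in ADT mice (difference 5.46 ± 0.072; limma, adjusted p = 5.75e-08), and Krt5 also rose by 1.71 from sham to ADT in PP mice. Krt14, its partner keratin, read 8.38 and 9.17, 21.7 and 22.4, 14.3 and 17.2, and 1504 and 1542 FPKM in the same order of groups. It was already higher in PPK sham than in PP sham, by 1.24, and its effect under ADT was 6.51. Trp63, the gene of p63, was under 1 FPKM in the other 6 libraries and read 23.4 and 23.2 in PPK ADT. Aqp3, a water and glycerol channel of basal cells, reversed: it was lower in PPK sham (1.03 and 0.778 FPKM) than in PP sham (2.64 and 2.59) and read 105 and 108 in PPK ADT against 3.69 and 3.44 in PP ADT.

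The squamous and cornified envelope list had 29 of 36 members tested, and the difference was positive for 26, negative for 1 and not passed for 2. In 20 of these the effect appeared under ADT as a higher level in PPK. Krt10, a suprabasal keratin of the epidermis, read 0.956 and 1.23 FPKM in PP sham, 0.955 and 0.930 in PPK sham, 7.57 and 7.95 in PP ADT, and 1222 and 1228 in PPK ADT. It was near 1 FPKM in both sham groups, and its difference of effects was 7.23 ± 0.097 (limma, adjusted p = 5.86e-08). Tgm1, which cross-links the cornified envelope, read 1.06 to 1.42 FPKM in sham libraries, 3.64 and 3.83 in PP ADT, and 189 and 189 in PPK ADT. Krt4, a keratin of mucosal squamous epithelium, reversed, at 430 and 426 FPKM in PP sham, 280 and 280 in PPK sham, 278 and 280 in PP ADT, and 745 and 753 in PPK ADT. The cornified envelope gene Ivl also reversed (-0.94 to 0.77). Krt80 alone had a negative difference (-1.79), and Sbsn read 13.7 to 29.6 FPKM across the libraries, with a difference that did not pass (0.19, limma, adjusted p = 0.321).

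**Figure D3:**
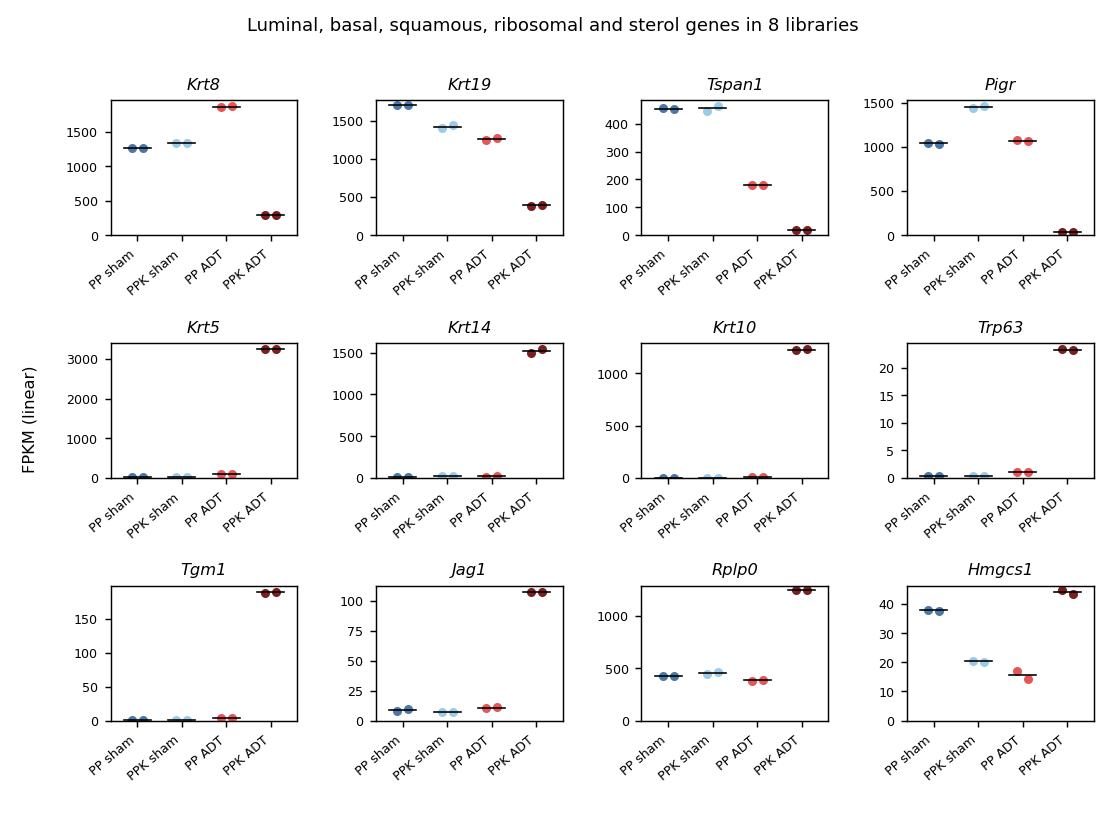
FPKM (linear axes from 0) of 12 luminal, basal, squamous, Notch, ribosomal and sterol genes in each library, with the group mean as a line. Krt8, Krt19, Tspan1 and Pigr are lowest in PPK ADT, and Krt5, Krt14, Krt10, Trp63, Tgm1, Jag1 and Rplp0 are far above the other 6 libraries there, as with Krt5 at 3242 and 3243 FPKM.

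Desmosome and Notch genes had mostly positive differences. Of 10 desmosome genes, 8 had a positive difference and 2 a negative one (median 1.63). Perp, a desmosomal protein that p63 and p53 regulate, read 84.3 and 87.1 FPKM in PP sham, 60.7 and 57.2 in PPK sham, 67.6 and 64.6 in PP ADT, and 641 and 650 in PPK ADT. Among Notch genes, 8 of 13 had a positive and 4 a negative difference. The ligand gene Jag1 read 8.33 and 9.36 FPKM in PP sham, 6.96 and 7.23 in PPK sham, 10.5 and 11.0 in PP ADT, and 107 and 108 in PPK ADT. The receptor gene Notch1 followed (-0.42 to 2.31), and the Notch targets Nrarp (-0.62 to 2.80) and Hey1 (-1.14 to 2.66) reversed. Genes of the epithelial-mesenchymal transition list were higher in PPK in both settings for the median member (0.51 in sham, 1.73 in ADT), with 12 of 13 differences positive and 1 not passed. Fibroblast markers had positive differences for 11 of 11 tested, with sums of 7.73 to 8.34 FPKM in PP sham, 25.9 to 26.3 in PPK sham, 5.88 to 6.32 in PP ADT and 59.0 to 61.3 in PPK ADT. Smooth muscle markers summed to 130 to 131 FPKM in PPK ADT and to 63.4 to 65.4 in PP ADT. The part of such cells in these results was not tested.

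Ribosomal protein genes and genes of dividing cells had mostly positive differences. All 34 ribosomal protein genes had a positive difference (median 1.56), and 33 of them met the rule for an appeared effect. Rplp0, of the ribosomal stalk, read 427 and 424 FPKM in PP sham, 443 and 462 in PPK sham, 383 and 390 in PP ADT, and 1242 and 1244 in PPK ADT. The other 6 libraries lay within 383 to 462 FPKM. Ribosomal protein genes have many processed copies in the genome, which FPKM cannot part. In the list of the Myc network and ribosome biogenesis, 19 of 21 differences were positive and 2 did not pass (median 0.87), and 3 of the 21 met the rule for an appeared effect. Npm1, a nucleolar chaperone, read 225 and 233 FPKM in PPK ADT and 71.6 to 85.1 in the other libraries.

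All 21 tested genes of the G2 and mitosis list had a positive difference (median 1.35), and 16 of them met the rule for an appeared effect. In the S phase list 17 of 21 differences were positive and 4 did not pass (median 0.59), with 2 appeared effects. Mki67, the proliferation marker, read 4.44 and 4.82 FPKM in PP sham, 5.92 and 5.94 in PPK sham, 2.65 and 2.69 in PP ADT, and 10.5 and 10.5 in PPK ADT. It fell from sham to ADT in PP (-0.62) and rose in PPK (0.73). Rrm2, the ribonucleotide reductase subunit of S phase, read 14.0 and 14.7 FPKM in PPK ADT against 1.41 and 1.45 in PP ADT. Plk1, a mitotic kinase, reversed, being lower in PPK sham than PP sham (-0.55) and higher in PPK ADT than PP ADT (1.44), though its level in PPK ADT (4.32 and 3.64 FPKM) was below that in PP sham (7.54 and 8.46).

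Sterol synthesis genes were mostly lower in PPK without ADT and higher with it. In sham mice 17 of 25 were lower in PPK, and in ADT mice 19 were higher. The difference was positive for 22 and did not pass for 3 (median 1.10). By pattern, 6 of the 25 reversed and 4 appeared. Hmgcs1, which makes HMG-CoA for the pathway, read 37.9 and 37.7 FPKM in PP sham, 20.4 and 20.1 in PPK sham, 17.0 and 14.2 in PP ADT, and 44.7 and 43.5 in PPK ADT. PP sham and PPK ADT were thus the high groups, and the effect turned from -0.87 to 1.45 (difference 2.32 ± 0.11; limma, adjusted p = 7.32e-06). Stard4, a sterol carrier, turned from -1.22 to 1.60.

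Fatty acid synthesis genes were less uniform, with 16 of 24 differences positive, 4 negative and 4 not passed. Fasn, the fatty acid synthase, read 24.6 and 22.8 FPKM in PP sham, 16.6 and 16.7 in PPK sham, 13.9 and 14.3 in PP ADT, and 33.6 and 34.0 in PPK ADT. Its sham effect was -0.48 and its ADT effect 1.20, a difference of 1.68 ± 0.065 (limma, adjusted p = 3.45e-06). Acly, which supplies acetyl-CoA, had the same order of groups, with an effect of -0.49 in sham and 0.97 in ADT mice. Acsl3, a fatty acyl-CoA ligase, reversed (-0.86 to 0.86), and Me1, malic enzyme, was lower in PPK in both settings and more so under ADT (-0.59 and -1.63). Of 22 immediate early genes, 8 differences were positive, 8 negative and 6 did not pass. In sham mice 17 were lower in PPK and 2 higher, and in ADT mice 16 were lower and 4 higher (median effects -0.39 and -0.52). The 2 that reversed were Egr3 (-2.11 to 2.39) and Klf4, a factor of epithelial differentiation (-0.98 to 1.74).

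**Figure D4:**
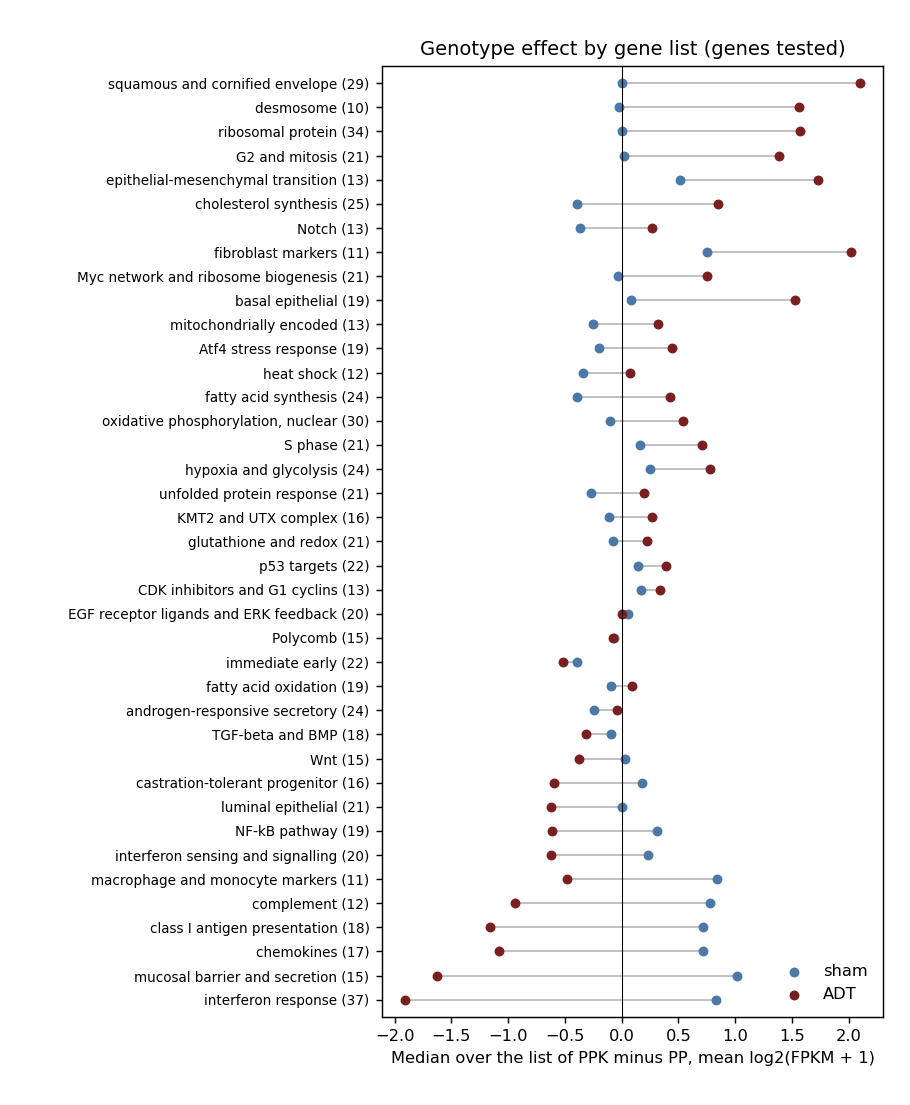
Median genotype effect (difference of mean log2(FPKM + 1), PPK minus PP) over the tested members of each of 39 gene lists with at least 10 of them, in sham (blue) and ADT mice (dark red), ordered by the median difference of effects. Interferon response moves from 0.83 to -1.91 and cholesterol synthesis from -0.39 to 0.85.

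Effects that vanished under ADT were mostly on genes whose level was low after ADT. Of the 130 vanished genes, 77 had both ADT group means under 1 FPKM, 39 had a group listed at 0, and 48 had both ADT means at or above 1 FPKM. Pbsn, the androgen-driven secretory gene probasin, read 377 and 356 FPKM in PP sham and 35.8 and 27.7 in PPK sham, a sham effect of -3.50, and was listed at 0 in all 4 ADT libraries. Msmb, another prostate secretory protein gene, read 69.5 and 67.1 FPKM against 10.9 and 10.5 and was likewise listed at 0 under ADT. Tgm4, the prostate transglutaminase, read 66.8 and 66.5 FPKM in PP sham, 0.899 and 0.891 in PPK sham, and 0.0228 to 0.133 in the ADT libraries. For such genes there was little level left in which a genotype effect could be measured under ADT. In the androgen-responsive secretory list, 10 of 24 differences were positive, 9 negative and 5 not passed, and 5 effects vanished. Summed over the list, PPK sham libraries A and B lay apart, at 1773 and 1178 FPKM. The sums were 2578 and 2526 in PP sham, 246 and 250 in PP ADT, and 183 and 184 in PPK ADT.

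Other vanished effects left a measurable level. Ifi27l2a, an interferon-inducible gene, read 19.9 and 24.0 FPKM in PP sham, 94.9 and 94.7 in PPK sham, 102 and 99.1 in PP ADT, and 94.7 and 93.7 in PPK ADT. PP sham stood apart as the low group, and the effect went from 2.07 to -0.09 (difference -2.16 ± 0.11; limma, adjusted p = 1.07e-05). Areg, a ligand of the EGF receptor, read 67.3 and 68.7 FPKM in PP sham, 27.7 and 26.8 in PPK sham, 48.0 and 50.4 in PP ADT, and 57.6 and 60.5 in PPK ADT. Krt78 was not of this kind, since both of its ADT group means were under 1 FPKM. It read 19.7 and 20.3 FPKM in PP sham and 0.807 to 1.71 in the other 6 libraries.

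Some genes that were highest in a sham group reversed instead. Rnase1, a secreted ribonuclease, read 90.3 and 89.6 FPKM in PP sham, 2.75 and 2.81 in PPK sham, 0.516 and 0.616 in PP ADT, and 12.2 and 12.6 in PPK ADT. It fell from sham to ADT in PP by 5.86 on the log2 scale and rose in PPK by 1.82, and its difference of effects was 7.68 ± 0.079 (limma, adjusted p = 2.95e-08). Defb1, an antimicrobial defensin, had the same order of groups at 120 and 121, 8.60 and 5.93, 1.51 and 2.08, and 10.5 and 10.7 FPKM. Klk1, a tissue kallikrein, read 192 and 187 FPKM in PPK sham and 0.740 to 5.75 in the other libraries, with effects of 4.93 and -0.50. Because its ADT effect is at the bound of 0.5, it counts as reversed rather than vanished.

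**Figure D5:**
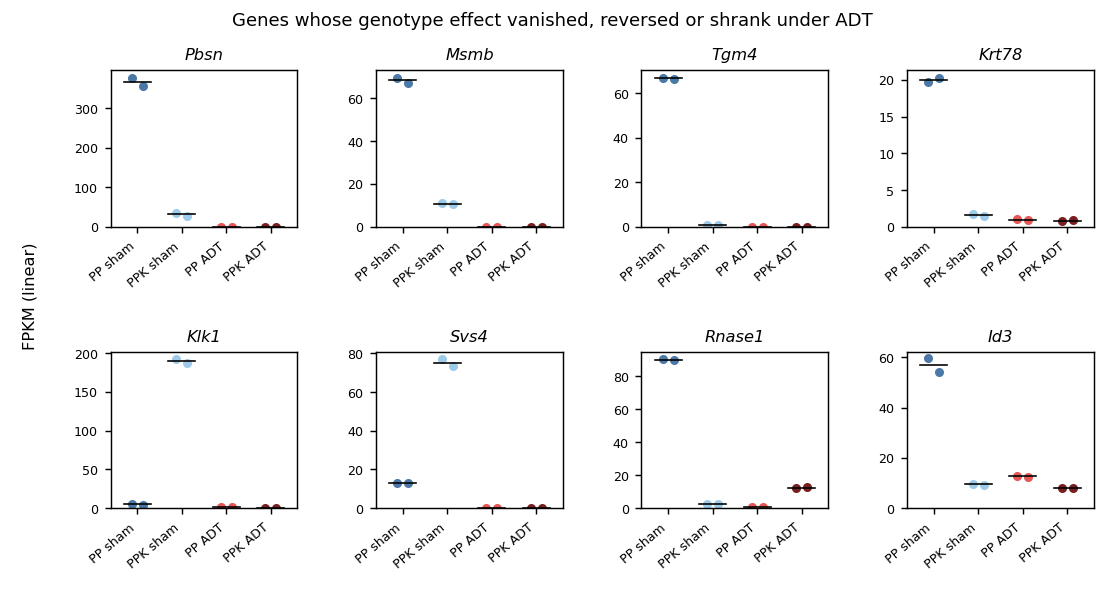
FPKM (linear axes from 0) of 8 genes whose genotype effect vanished, reversed or shrank under ADT, in each library with the group mean as a line. Pbsn and Msmb are listed at 0 in all 4 ADT libraries, and Klk1 is high in PPK sham alone (192 and 187 FPKM).

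Among genes with effects of the same direction in both settings was Ifitm1, an interferon-induced membrane protein gene, which was higher in PPK in each: 0.557 and 0.987 FPKM in PP sham, 1.63 and 2.38 in PPK sham, 5.79 and 8.15 in PP ADT, and 400 and 433 in PPK ADT. Fscn1, which bundles actin, and Col7a1, the collagen of anchoring fibrils made by basal keratinocytes, had larger positive effects under ADT as well (differences of 4.72 and 4.17), though the sham effect of Fscn1 did not pass (0.53, limma, adjusted p = 0.0549). Ubd, a ubiquitin-like modifier, was lower in PPK in both (-0.90 and -4.52). Id3, an inhibitor of bHLH factors and a BMP target, was lower in PPK in both with a smaller effect under ADT: 59.6 and 54.2 FPKM in PP sham, 9.57 and 9.28 in PPK sham, 12.7 and 12.6 in PP ADT, and 8.06 and 8.23 in PPK ADT. Car9, a carbonic anhydrase induced by hypoxia, was higher in PPK in both, by 1.99 and 0.51.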

How the data were processed

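FPKM values were computed by the authors and deposited as 1 table per library. FastQC 0.11.2 and build mm10 are named in the submitters' processing notes. Which aligner and quantifier were run is not given in the sources used here. Per the labels' protocols, libraries were strand-specific TruSeq from Trizol-extracted total RNA. The 8 tables share 55335 Ensembl identifiers, whose symbols and positions were looked up in GENCODE M21 (GRCm38), with 181 left without a symbol. For the 14000 genes at 1 FPKM or above in 2 or more libraries, limma 3.58.1 (R 4.3.3) fitted the means of the 4 groups to log2(FPKM + 1). The variance prior followed the mean level, with 2.4 prior beside 4 residual degrees of freedom. P-values were two-sided and Benjamini-Hochberg adjusted over all 14000 genes, and a gene passed under 0.05. Python 3.11.15 with pandas 2.3.3 did the joins and motif counts, and numpy 2.4.6 and matplotlib 3.10.9 the plots. The fit was tested on simulated data.

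A fold change against a group listed at 0 in both libraries is not given. Of 15 housekeeping genes none was listed at 0 in any library. FPKM cannot part near-identical genes, among them Ifit3 and Ifit3b, the H2 genes, Krt6a and Krt6b, Fabp5 and ribosomal protein genes. Between groups, deviations of same-lettered libraries had correlations from -0.008 to 0.057. No pairing by letter was seen, though such correlations cannot exclude one.

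The rule for named genes took Kmt2c, the 8 largest differences of effects per direction among reversed, appeared and vanished genes with a highest group mean of at least 5 FPKM, and the 4 largest per direction of the same-direction genes. It also took up to 4 members of each of 48 lists with the smallest adjusted p (or the 2 with the highest mean where none passed) and any member of the interferon response, class I, androgen-responsive secretory, luminal, basal and squamous lists. Predicted and unnamed genes were left out. The genes on each side of the bound of 1 were named outside this rule. The members and lists were chosen with earlier results of these data known. Alternatives were a pseudocount of 0.1, quantile normalization, median-of-ratios scaling, no trend, array weights, no filter, a floor of 5 on the mean FPKM, a replicate block, limma's treat against a 2-fold change, bounds of 0.25 and 0.75 in place of 0.5, and leaving out each library. Organoids, also mentioned by the design text, were not analysed here, and 1 item of the genotype labels and some genes that the rule names are not reported here.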

Additional observations from a re-analysis of the deposited data

Results flagged for a closer look

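The results here are those in which the genotype effects in sham and ADT mice differed: the difference of effects, the effect of Kmt2c loss in ADT mice minus that in sham mice, passed limma's test with Benjamini-Hochberg adjustment for 7395 of 14000 genes. The genes below are those that the rule named for a large difference per pattern and direction, chosen for that size, so their values are a description. Genes with a group listed at 0 in both libraries are left out, so the largest vanished differences in either direction are not given here.

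Reversed effects had differences on the log2 scale that were positive for Rnase1 (7.68), Defb1 (5.95), Fabp5 (5.64), Aqp3 (5.49), Calml3 (5.20), Tmem45a (4.67) and Defb50 (4.52), and negative for Lypd8 (-6.41), Ifit3 (-5.65), mt-Tg (-5.61), Clca3a2 (-5.50), Cp (-5.45), Klk1 (-5.43), Sftpd (-5.29) and Clca1 (-5.19). Effects that appeared under ADT had differences on the log2 scale that were positive for Krt10 (7.23), Tmprss11b (5.60), Krt1 (5.46), Krt5 (5.46), Tgm1 (5.19) and Pitx1 (4.86), and negative for Pigr (-5.46), Edn1 (-4.50), Spns2 (-4.38), Plat (-4.28), Plekhs1 (-4.19), Car2 (-4.15), Cxcl15 (-4.13) and Gsdmc3 (-4.12). Effects that vanished under ADT had differences on the log2 scale that were positive for Tgm4 (5.13), Wdr72 (3.14), Krt78 (2.92) and Gstm7 (2.18), and negative for Svs4 (-2.17), Ifi27l2a (-2.16) and Ifi205 (-2.0). With a pseudocount of 0.1, Svs4 had a difference of -1.18 and no longer passed. Effects of the same direction that were larger under ADT had differences on the log2 scale that were positive for Krt14 (5.28), Ifitm1 (4.97), Fscn1 (4.72) and Col7a1 (4.17), and negative for Ubd (-3.63), Krt23 (-3.05) and Arl14 (-2.74). Effects of the same direction that were smaller under ADT had differences on the log2 scale that were positive for Sult1c2 (2.86), Tcaf2 (2.35), Fbp1 (2.17) and Id3 (1.89), and negative for Eif3j2 (-1.83), Car9 (-1.48), Ecm1 (-1.19) and Tpm2 (-1.08). Of these, mt-Tg is a mitochondrial tRNA gene, and Fabp5 has near-identical copies. For some reversed genes an effect rested on low levels. In sham libraries Calml3 read 0.0401 to 1.17 FPKM and Fabp5 0.611 to 1.51. In ADT libraries Defb50 read 0 to 2.24 FPKM and Klk1 0.740 to 1.55.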

How the results depend on the processing

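With 2 libraries per group, 4 residual degrees of freedom set the precision, and FPKM tables hold no counts. The difference of effects passed for 7395 genes and for 6529 to 6755 when each library was left out (the lone library is then assumed to vary like the others), with 523 to 545 reversed, 1478 to 1579 appeared and 131 to 145 vanished. At a mean FPKM of at least 5, 7092 genes were tested. Then 4476 passed, 4918 passed for the genotype effect in ADT mice, and reversed, appeared, vanished and same-direction genes numbered 357, 875, 43 and 90, with fewer genes tested. Against a 2-fold change (treat), 1453 differences passed, with 168 genotype effects in sham and 1436 in ADT mice. Reversed, appeared and vanished genes then numbered 38, 759 and 45, since the effects that define a pattern had to exceed a 2-fold change. With a pseudocount of 0.1, same-direction genes numbered 359. With a bound of 0.25 for a small effect, 957 reversed and 311 kept their direction, and with 0.75 these were 256 and 69, since the bound defines them. Positive differences were 56.8% of those passed, 51.5% with median-of-ratios scaling and 51.7% with quantile normalization.

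No pairing of the libraries by letter was seen. With the letter as a replicate block 7186 differences passed, with 547 reversed, 1535 appeared and 129 vanished, and Lamb3 and Upk2 no longer passed.

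Directions turned for Spink1 with a pseudocount of 0.1 (-1.15), for mt-Nd1 with quantile normalization (-0.04) and for Sbp without PPK sham library A (0.46, with -0.68 without library B). The PPK sham libraries thus differed in their level of Sbp. The cause was not tested. Of 323 named genes that passed, 32 moved by over 1.5 times with a pseudocount of 0.1 and 16 with quantile normalization, among them Cd24a, Epcam, Krt17 and Hk2. The median of mitochondrially encoded genes was 0.67, and 0.00 with quantile normalization.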

Other observations

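Energy and stress genes mostly had positive differences of effects. Of 30 nuclear genes of oxidative phosphorylation, 26 were positive, 1 negative and 3 did not pass (median 0.62). All 13 mitochondrially encoded genes were positive (median 0.67), but 4 were positive and 2 negative with quantile normalization, with a median of 0.00. Of 24 genes of hypoxia and glycolysis, 18 were positive and 5 negative. The lactate exporter gene Slc16a3 read 6.30 and 6.07 FPKM in PP sham, 7.48 and 7.39 in PPK sham, 4.23 and 4.46 in PP ADT, and 21.8 and 20.4 in PPK ADT. Of 19 genes of the Atf4 stress response, 13 were positive, among them Sesn2, an inhibitor of mTORC1 signalling, with an effect of 0.13 in sham and 1.65 in ADT mice. Fatty acid oxidation genes differed less, with 8 of 19 positive, 1 negative and 10 not passed.

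Signalling lists were divided. Dusp4, a phosphatase that dampens ERK, reversed from 0.70 to -1.40, and Wnt7b, a Wnt ligand gene, from 0.84 to -0.67. Tgfbr2, a TGF-beta receptor gene, read 34.4 and 35.7 FPKM in PP ADT and 10.8 and 10.2 in PPK ADT, with a sham effect of 0.32. Gsta4, a glutathione transferase gene, reversed the opposite way, from -0.85 to 1.68. Of 16 genes of the KMT2 and UTX complexes, 9 had a positive difference and 7 did not pass, and none of the 16 met the rule for a pattern. Polycomb genes had 5 positive, 3 negative and 7 not passed of 15, and Cbx7 appeared as lower in PPK under ADT (-1.20).

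Markers of other tissues were read too. Seminal vesicle genes summed to 1273 to 1277 FPKM in PP sham and 564 to 570 in PPK sham, and to 0.978 to 6.75 in the ADT libraries. Urothelial markers summed to 151 to 157 FPKM in PP sham and 41.1 to 45.1 in PPK sham, and to 126 to 129 in PP ADT and 78.9 to 83.3 in PPK ADT. Krt20, a keratin of urothelial umbrella cells and of other epithelia, read 0.180 to 1.03 FPKM in the other 6 libraries and 49.3 and 54.3 in PPK ADT, while Upk1a read 10.6 and 10.6 there against 59.2 and 60.7 in PP ADT. No lymphocyte marker was high enough to be tested, and their sum was 0.37 to 1.89 FPKM.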
